A study of Mus musculus with 59 samples.

Results

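The Sox genes of neural progenitors and glia are taken here as Sox1, Sox2, Sox3, Sox5, Sox6, Sox8, Sox9 and Sox21, the members of the SoxB, SoxD and SoxE groups named for this question, without Sox10. Their probe sets were found by gene symbol, each probe set carrying that symbol alone, which gave 22 probe sets for 8 genes out of 45101 probe sets and 18194 genes on the array. Members were selected by gene name. Messenger RNA was measured in C57BL/6 mouse brain on 59 Affymetrix Mouse 430 2.0 arrays in 19 groups, 17 of 3 arrays and 2 of 4. Their mothers had been given, orally on embryonic days E12.5, E13.5 and E14.5, valproic acid (VPA) at 300 mg/kg, its amide valpromide (VPM) at 300 mg/kg, or methylcellulose (MC, 0.5% w/v) as vehicle. VPA treats epilepsy and inhibits histone deacetylases. VPA, VPM and MC groups were sampled as E14.5 telencephalon, 3 h from the final dose, and as hippocampus and forebrain at E18.5. VPA and MC offspring were sampled as adult males of 12 to 13 weeks, in hippocampus and cortex, with a running wheel in the cage after weaning (VPA+RW, MC+RW) or without. A further set of male hippocampus at P84 held VPA and MC offspring. Every mother was dosed, the MC mothers with vehicle. The labels name no litters, so p-values measure the spread between arrays that may share a dam.

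Sox proteins are transcription factors that bind DNA through a high mobility group domain. The SoxB1 proteins Sox1, Sox2 and Sox3 keep neural progenitors undifferentiated, and Sox21, of the SoxB2 group, counters SoxB1 activity and is linked to neuronal differentiation. The SoxD proteins Sox5 and Sox6 lack an activation domain of their own. Sox5 marks early-born deep-layer neurons of the neocortex, and Sox6 marks dorsal progenitors of the cortex and later interneurons from the medial ganglionic eminence. Of the SoxE proteins, Sox9 is needed for radial glia and astrocytes, and Sox8 is found in the oligodendrocyte lineage together with Sox10.

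The sequences just upstream of these genes are shown for 3 members, Sox5 and Sox6, which were both lower after VPA at E14.5, and Sox2, whose difference was smaller, for comparison. Each is the 250 bases before an annotated transcript start, from RefSeq on build GRCm38.p6, 5′ to 3′ along the gene's strand, and the table held such an entry for 6 of the 8 members, Sox3 and Sox9 having none. Capitals mark, on either strand, the GC box GGGCGG, the box CCAAT, the core ACAAT that Sox proteins bind and the TATA-like TATAAA, and none of the marked sites overlap in the sequences shown. Of all 32851 promoters of the same length, 32.7% hold the GC box, 33.8% the CCAAT box, 27.7% the Sox-type core and 12.4% the TATA-like motif. For Sox5 and Sox6 the start lies inside the annotated gene. Sox6 has several entries, of which the most upstream is given.
Sox5, chr6:143947107-143947356, minus strand: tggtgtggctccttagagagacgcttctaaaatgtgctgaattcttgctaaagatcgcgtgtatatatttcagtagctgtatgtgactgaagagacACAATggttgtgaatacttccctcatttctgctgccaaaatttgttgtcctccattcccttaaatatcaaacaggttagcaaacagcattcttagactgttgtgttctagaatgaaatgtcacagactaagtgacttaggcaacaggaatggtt
Sox6, chr7:116038745-116038994, minus strand: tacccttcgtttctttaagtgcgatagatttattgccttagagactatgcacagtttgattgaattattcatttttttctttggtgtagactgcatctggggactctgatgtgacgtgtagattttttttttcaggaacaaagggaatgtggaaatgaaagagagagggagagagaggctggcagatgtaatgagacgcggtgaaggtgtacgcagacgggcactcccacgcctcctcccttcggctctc
Sox2, chr3:34649745-34649994, plus strand: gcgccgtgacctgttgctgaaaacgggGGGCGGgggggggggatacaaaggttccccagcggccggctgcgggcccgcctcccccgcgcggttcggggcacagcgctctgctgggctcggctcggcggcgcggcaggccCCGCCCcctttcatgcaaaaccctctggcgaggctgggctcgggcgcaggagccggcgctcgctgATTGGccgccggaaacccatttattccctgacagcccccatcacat
The Sox2 sequence, 72% G and C, holds the GC box 2 times and the CCAAT box 1 time. The Sox5 sequence, 39.6% G and C, holds the Sox-type core 1 time, and the Sox6 sequence, 45.2% G and C, holds none of the 4 motifs. The sequences at other Sox6 starts, not shown, do hold motifs, such as the GC box 4 times in a sequence of 60.8% G and C.

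Values are fluorescence signals after every array was brought to the same trimmed mean, 500, and levels of different probe sets cannot be set against each other. A gene is called where its adjusted p is under 0.05. In tissue samples, fewer cells of a type and less RNA per cell cannot be told apart. For each gene the probe set with the highest mean over all arrays was tested, and other probe sets are given beside the results that turn on them. All 8 genes had a scaled signal of at least 100 in every array with that probe set, while 2 of the 7 Sox5 probe sets and 1 of the 3 Sox9 probe sets never reached 100. Markers of radial glia, such as Pax6, Hes1 and Fabp7, summed to 58157 to 72766 in the E14.5 arrays and to 14514 to 18613 in the arrays of 12 to 13 weeks, and markers of oligodendrocytes and myelin summed to 1191 to 2516 at E14.5 and to 33909 to 43335 at 12 to 13 weeks. Arrays of a group correlated at 0.972 to 0.994. At E14.5, VPM replicate 3 stood apart by its choroid plexus markers, with Ttr at 19331 against at most 105 in the other 8 arrays.

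At E14.5, soon after the last dose, the SoxD genes and Sox9 were lower in VPA than in MC telencephalon. Sox5 measured 1394, 1511 and 1309 in the 3 VPA arrays, against 2537, 3331 and 2860 in MC. Every VPA array lay far below every MC array. The log2 change was -1.04 (SE 0.10, limma adjusted p = 6.23e-06), and means ± SD were 1405 ± 101 in VPA and 2909 ± 399 in MC (n = 3 each). The other 4 tested Sox5 probe sets fell as well, by 0.96 to 1.37 on the log2 scale. Sox6 measured 757, 609 and 804 in VPA, against 1287, 1059 and 1151 in MC. All VPA arrays lay below all MC arrays, and the log2 change was -0.69 (SE 0.11, adjusted p = 0.000311). The 3 further Sox6 probe sets fell by 0.55 to 0.80 and passed the test over all probe sets.

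Sox9, the SoxE gene of radial glia, measured 530, 446 and 446 in VPA, against 759, 784 and 761 in MC. Again no VPA array reached the MC range, with a log2 change of -0.70 (SE 0.09, adjusted p = 3.78e-05). The second Sox9 probe set changed by -0.74 with an adjusted p of 7.41e-05. Sox8, the other SoxE gene, measured 181, 201 and 207 in VPA and 216, 173 and 221 in MC. The Sox8 groups overlapped, and its log2 change of -0.04 (95% interval -0.40 to 0.31) did not pass the test.

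Among the SoxB genes the picture was mixed. Sox2, the pluripotency and progenitor factor, measured 5280, 4243 and 4373 in VPA, against 6476, 4660 and 6169 in MC, and the groups overlapped through MC replicate 2. Its log2 change of -0.31 (SE 0.12) passed narrowly, with an adjusted p of 0.0482, and lost the call without MC replicate 1, MC replicate 3, VPA replicate 2 or VPA replicate 3 and under 7 of 10 other settings, with adjusted p-values between 0.00282 and 0.198 over all of them. Sox3, which lies on the X chromosome, had a log2 change of -0.12 (95% interval -0.31 to 0.06) and Sox1 of -0.11 (-0.41 to 0.18). Neither passed, and the groups of both overlapped.

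Sox21 gave different answers with its 2 probe sets. Probe set 1437059_at, the brighter over all arrays, measured 1174, 1896 and 1307 in VPA, against 636, 1203 and 637 in MC. MC replicate 2 lay inside the VPA range, the other 2 MC arrays well below it. The log2 change was 0.86 (SE 0.23, adjusted p = 0.00778, and 0.0753 with no filter). Probe set 1451835_at measured 1756, 1889 and 2081 in VPA, against 1832, 2123 and 1917 in MC, a log2 change of -0.04 that did not pass (adjusted p = 0.747 over all probe sets). No direction is therefore given for Sox21 as a gene.

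In all, 1 of the 8 genes was called higher in VPA, Sox21 with its chosen probe set only, and 4 were called lower. Of the 11068 genes tested at E14.5, 53.8% were called in either direction (27% higher, 26.8% lower). The share among the 8 genes was near that background. The groups did not overlap for 3 of the 8, against 60.2% of all genes. The median log2 change of the 8 genes was -0.22, beside -0.003 over all genes tested.

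**Figure D1:**
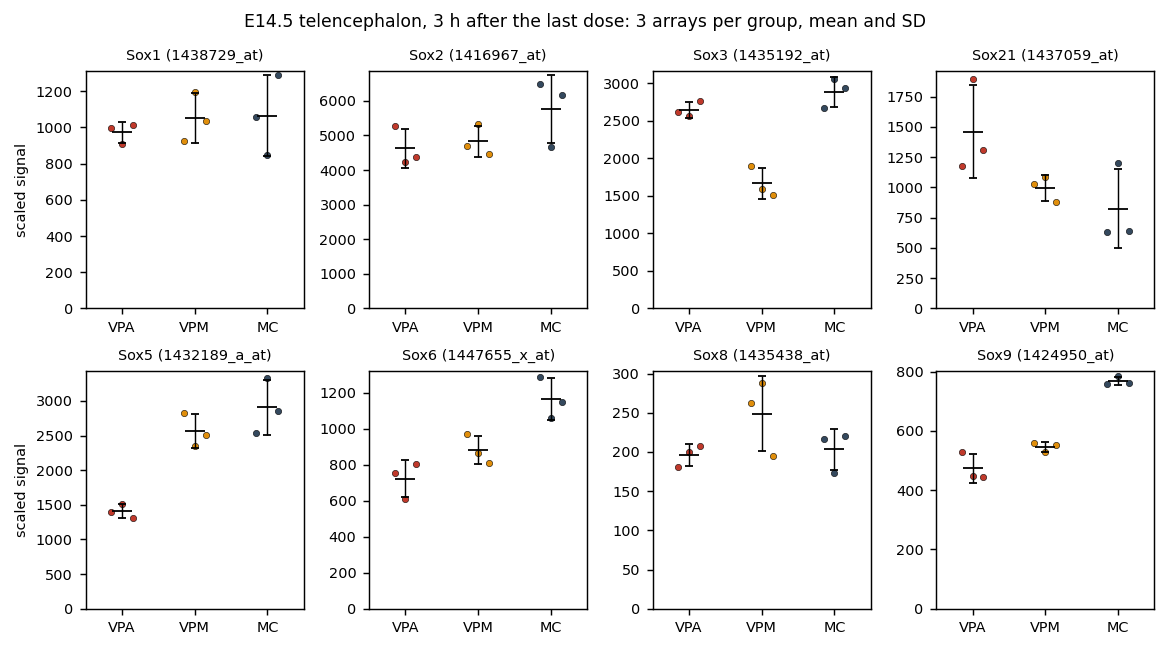
Scaled signal of the chosen probe set of each Sox gene in the E14.5 telencephalon, 3 arrays per group for VPA, VPM and MC, with the mean and SD as bars. Sox5 is at 1309 to 1511 in VPA arrays, below all VPM and MC arrays, Sox3 is at 1512 to 1904 in VPM arrays, below all VPA and MC arrays, and Sox9 is lower than in MC in both drug groups.

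Gene lists of the cell types in which the Sox genes work were counted beside them. Of 16 radial glia genes, 10 fell and 2 rose in VPA, with a median log2 change of -0.29. Among them were the Notch target Hes1 (-0.78, adjusted p = 4.16e-05), the growth factor receptor gene Fgfr3 (-0.78) and the Hedgehog effector Gli3 (-0.61). Of 8 intermediate progenitor genes, 6 fell and 0 rose (median -0.46), with the proneural gene Neurog1 at -2.12 and Eomes at -0.92. Of 7 deep-layer neuron genes, 5 fell and 1 rose (median -0.40). Tbr1 changed by -1.38, Fezf2 by -1.23 and Bcl11b by -0.40, and each passed.

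Astrocyte and gliogenesis genes fell in 6 of 11 cases and rose in 0 (median -0.35), with the gap junction gene Gja1 at -0.95. Of 12 cell cycle genes, 11 fell and 0 rose (median -0.48), among them Plk1 at -0.80 and Mki67 at -0.76. Of 10 ventral and interneuron genes, 2 rose and 2 fell (median -0.18). Dlx6, a homeobox gene of the ventral forebrain, rose by 1.33 (adjusted p = 0.00214), and Sst fell by 0.50 (adjusted p = 0.0392). Of 5 oligodendrocyte genes tested, 1 rose and 0 fell.

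Of 6 other Sox genes tested, 3 fell and 0 rose: the SoxC gene Sox12 (-0.46, adjusted p = 0.000362), the endothelial gene Sox18 (-0.74, adjusted p = 0.0024) and the SoxC gene Sox4 (-0.11, adjusted p = 0.0462). Endothelial and pericyte markers fell in 4 of 8 cases, with Esam at -0.78, meningeal markers in 2 of 4, microglial markers in 0 of 6. Blood markers fell in 2 of 4 cases (Hbb-y -0.64, Hba-x -0.44), with a summed signal of 6527 to 10008 in VPA and 10942 to 12933 in MC. Newborn neuron genes, listed together with SoxC genes, fell in 9 of 11 cases and rose in 0 (Nhlh2 -1.07). The part of these cell types in the Sox results was not tested.

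In VPM telencephalon Sox3, Sox9 and Sox6 were called lower than in MC. Sox3 measured 1904, 1599 and 1512 in VPM, against 2669, 3059 and 2941 in MC. All VPM arrays lay below all MC arrays, with a log2 change of -0.79 (SE 0.09, limma adjusted p = 0.000827). The second Sox3 probe set fell by 0.64 (adjusted p = 0.0236 over all probe sets). Sox9 measured 559, 528 and 552 in VPM, against 759, 784 and 761 in MC. This fall of 0.49 on the log2 scale (SE 0.09, adjusted p = 0.00531) was called with the second probe set too, at -0.59 (adjusted p = 0.00513).

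Sox6 was 969, 868 and 810 in VPM, against 1287, 1059 and 1151 in MC, and the groups did not overlap. Its log2 change of -0.40 had an adjusted p of 0.0409. It lost the call without MC replicate 1, MC replicate 3, VPM replicate 2 or VPM replicate 3 and under 4 of 10 other settings, with adjusted p-values of up to 0.159. The other 3 Sox6 probe sets, at -0.27 to -0.36, did not pass.

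Sox5 measured 2832, 2342 and 2514 in VPM and 2537, 3331 and 2860 in MC, a log2 change of -0.18 (95% interval -0.40 to 0.04) that did not pass. Sox2, at -0.25 (-0.51 to 0.02), Sox8, at 0.28 (-0.07 to 0.64), and Sox1, at -0.005 (-0.30 to 0.29), did not pass either. Sox21 was again split: 1437059_at changed by 0.34 (adjusted p = 0.378), while 1451835_at measured 1521, 1383 and 1309 in VPM, against 1832, 2123 and 1917 in MC. Probe set 1451835_at fell by 0.48 with an adjusted p of 0.00682 over all probe sets, and its groups did not overlap.

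In all, 3 of the 8 genes were called lower and 0 higher in VPM, and 11.6% of all tested genes were called in either direction (5.65% higher, 5.91% lower). For 3 of the 8 the groups did not overlap, as for 32.8% of all genes. Without MC replicate 2 the count was 5, with Sox2 (-0.39) and Sox21 (0.64) added. Without VPM replicate 3, the array with choroid plexus signal, Sox3 changed by -0.73 (adjusted p = 0.00622) and Sox9 by -0.50 (adjusted p = 0.0213), and Sox6 by -0.34 (adjusted p = 0.145).

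Radial glia genes fell in 11 of 16 cases and rose in 1 in VPM telencephalon (median -0.36), with Hes1 at -0.92, Tcf7l1 at -0.95 and Gli3 at -0.61. Intermediate progenitor genes fell in 6 of 8 (Neurog1 -1.39, Eomes -0.56) and cell cycle genes in 11 of 12 (Mcm2 -0.58). Of 11 astrocyte and gliogenesis genes, 3 fell (Fgfr3 -0.69, Gja1 -0.57, Aldoc -0.32) and 1 rose (Aldh1l1 0.48). Without VPM replicate 3 the calls for Aldoc (limma adjusted p = 0.138) and Aldh1l1 (adjusted p = 0.0601) were lost. Of 5 oligodendrocyte genes, 3 rose and 0 fell: Olig1 by 1.03, Pdgfra by 1.24 and Gpr17 by 1.52. Among 4 blood markers Hbb-y (-2.53) and Hba-x (-2.16), globin genes of the embryo, fell and Alas2 (0.97) rose, and both falls had an adjusted p of 8.94e-06. For the 4 markers the summed signal was 2530 to 3178 in VPM and 10942 to 12933 in MC. The part of blood in the Sox results was not tested. Deep-layer genes rose in 2 of 7 cases and fell in 0 (Crym 0.86, Tle4 0.31), and both calls were lost without VPM replicate 3 (adjusted p 0.0746 and 0.0981). Tbr1, at -0.30, did not pass (adjusted p = 0.154). The SoxC and newborn neuron genes summed to 105346 to 112370 in VPM and to 97901 to 103873 in MC. Of 6 other Sox genes, 1 fell, the SoxD gene Sox13 (-0.53, adjusted p = 0.0173).

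**Figure D2:**
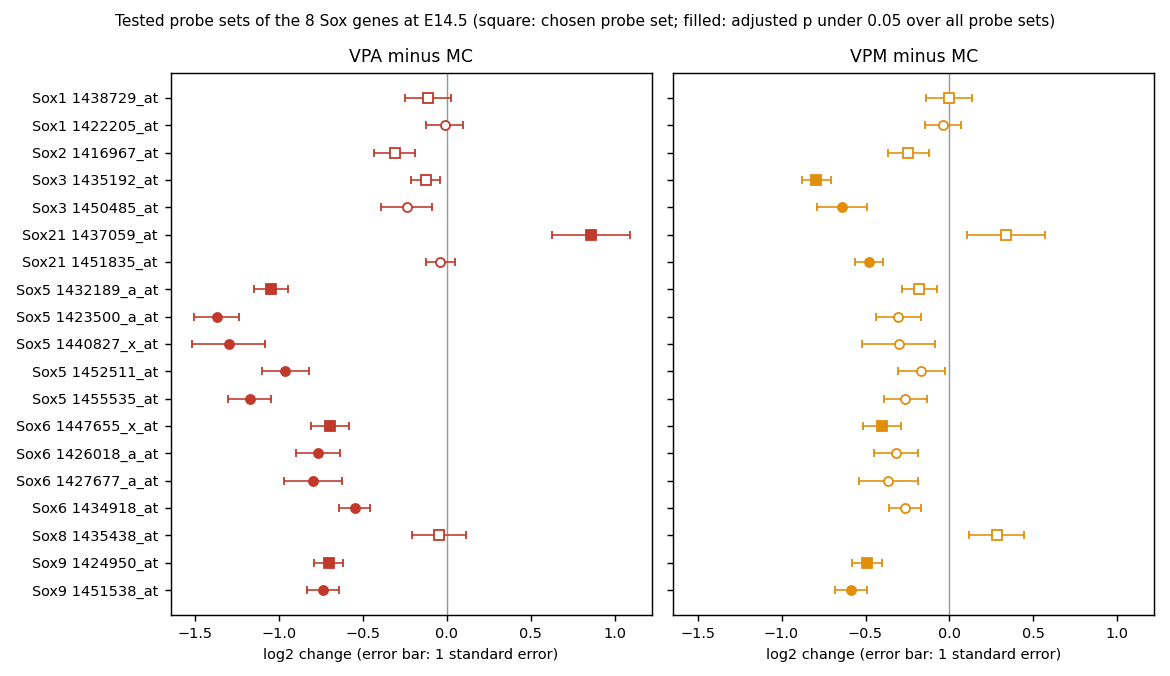
Log2 change with 1 standard error for each tested probe set of the Sox genes at E14.5, VPA minus MC on the left and VPM minus MC on the right. The 5 Sox5 probe sets lie between -1.37 and -0.96 in VPA, and the 2 Sox21 probe sets differ in both panels.

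VPA and its amide were set against each other at the same dose and time. Sox5 was lower in VPA than in VPM, by 0.87 on the log2 scale (SE 0.10, limma adjusted p = 2.36e-05), with 1309 to 1511 in VPA and 2342 to 2832 in VPM. Sox3 was higher in VPA, by 0.67 (SE 0.09, adjusted p = 4.56e-05), with 2563 to 2765 in VPA and 1512 to 1904 in VPM. The second Sox3 probe set differed by 0.40 (adjusted p = 0.0433) and the other 4 Sox5 probe sets by -1.06 to -0.79, all passing.

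Sox6 was lower in VPA by 0.29 (adjusted p = 0.0456), and of its other 3 probe sets 2 passed over all probe sets (-0.45 and -0.28) and 1 did not (-0.43). This is a call that was lost without VPA replicate 1, VPA replicate 2, VPM replicate 1 or VPM replicate 2 and in 6 of 10 other settings. For the remaining genes the difference did not pass and its 95% interval ran, for Sox9, from -0.40 to -0.02 (adjusted p = 0.0572), for Sox8 from -0.68 to 0.03, for Sox2 from -0.33 to 0.20 and for Sox1 from -0.41 to 0.19. Leaving out VPA replicate 1 gave Sox9 an adjusted p of 0.0126 and Sox21 of 0.0473, and leaving out VPM replicate 3 gave Sox8 of 0.0202. Sox21 was higher in VPA with both probe sets, by 0.52 with 1437059_at (95% interval 0.02 to 1.02, adjusted p = 0.0743) and by 0.44 with 1451835_at, which passed (adjusted p = 0.0011). In this comparison 3 of 8 genes were called, beside 54.5% of all genes (27.5% higher, 27% lower), and groups did not overlap for 4 of 8, beside 60.7%. The 8 Sox genes gave 8 pairs compared between the drugs, adjusted together with all genes.

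At E18.5, 4 days after the last dose, the forebrain held 1 called Sox gene. Sox2 measured 3556, 3345 and 3567 in VPA forebrain, against 4485, 4185 and 4378 in MC, and the groups did not overlap. The log2 change was -0.32 (SE 0.07, limma adjusted p = 0.0371). The call was lost without any 1 of the 6 arrays (adjusted p 0.0666 to 0.118) and in 6 of 10 other settings, among them the replicate block (adjusted p = 0.0558), while the change itself stayed between -0.35 and -0.29. The other SoxB1 genes moved the same way without passing: Sox1 by -0.29 (849 to 876 in VPA, 927 to 1238 in MC, adjusted p = 0.173) and Sox3 by -0.37 (398 to 481 in VPA, 507 to 641 in MC, adjusted p = 0.197). Their groups did not overlap, as for 22.3% of all genes.

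The SoxD and SoxE genes did not pass in VPA forebrain. Sox5 differed by 0.07 (95% interval -0.11 to 0.25), Sox6 by -0.16 (-0.34 to 0.02), Sox9 by 0.05 (-0.20 to 0.30) and Sox8 by 0.11 (-0.12 to 0.34). Sox21 differed by -0.13 (-0.38 to 0.12) and did not pass. Of all genes, 2.16% were called (1.09% higher, 1.06% lower). VPM forebrain differed from MC in 0 of 8 Sox genes, with 0% of all genes called, and VPA from VPM in 0 of 8, with 0.53% called.

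The choroid plexus markers differed between the same forebrain arrays. Their sum was 651 to 4978 in VPA, against 18181 to 26025 in MC, and 7 of 7 tested markers fell, among them Kcne2 with a log2 change of -3.11. Kcne2, Otx2 and Kl were below the floor in all VPA arrays. Oligodendrocyte and myelin markers summed to 8124 to 8595 in VPA and to 6219 to 6621 in MC. The part of either in the Sox2 result was not tested. Of the progenitor lists, 1 of 16 radial glia genes fell (Pax6, -0.41), 4 of 7 intermediate progenitor genes fell (Eomes -0.85, Neurog2 -0.93) and 4 of 12 cell cycle genes fell (Mki67 -0.39), with 0 rising in each.

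**Figure D3:**
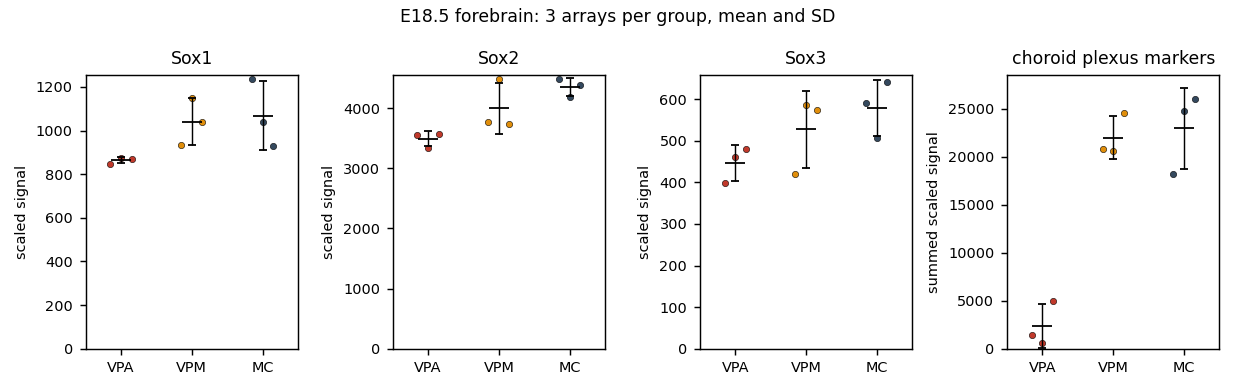
Scaled signal of Sox1, Sox2 and Sox3 and the summed scaled signal of 8 choroid plexus markers in E18.5 forebrain, 3 arrays per group for VPA, VPM and MC, with the mean and SD. The 3 VPA arrays have Sox2 at 3345 to 3567, below all MC arrays, and marker sums of at most 4978.

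In the E18.5 hippocampus limma called 0 of the 8 genes in VPA against MC and in VPA against VPM, where 0% of all genes were called, and 0 in VPM against MC, where 0.00867% (1 gene) were. At an unadjusted p under 0.05, VPA against MC held 0 of the 8 genes beside 13.1% of all genes, VPA against VPM 1 beside 14.9% and VPM against MC 2 beside 10.3%. In VPA against MC the log2 differences of the 8 genes lay between -0.25 (Sox3) and 0.27 (Sox21). Groups did not overlap for 2 of 8 in VPA against MC (Sox6 and Sox21), as for 17.8% of all genes. Sox2 measured 4111, 3398 and 2786 in VPA hippocampus and 3460, 3498 and 3661 in MC, so that the VPA arrays spread on both sides of MC. The dimmer probe sets of Sox1 (1422205_at, 62 to 139 in VPA and 140 to 160 in MC) and Sox3 (1450485_at, 96 to 130 in VPA and 159 to 185 in MC) did not overlap, with log2 changes of -0.74 and -0.68 that did not pass over all probe sets (adjusted p 0.32 and 0.204). Sox21 stood higher than MC in both exposed groups with both probe sets (0.27 and 0.28 in VPA, 0.40 and 0.40 in VPM), none of which passed. Choroid plexus markers varied widely here over the MC arrays, from 1741 to 30693, and over the VPM arrays, from 1104 to 28131. In the VPA arrays they summed to 23053 to 27714. Their part in these Sox results was not tested.

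The effect of VPA at E14.5 was tested against its effect in the E18.5 forebrain in a single model, in which 38.9% of 11646 genes differed. The E14.5 effect minus the E18.5 effect was -1.12 for Sox5 (limma adjusted p = 4.18e-05), -0.75 for Sox9 (adjusted p = 0.000268), -0.53 for Sox6 (adjusted p = 0.0139) and 0.99 for Sox21 (adjusted p = 0.0187). Both Sox9 probe sets, 4 of 5 Sox5 probe sets and 2 of 4 Sox6 probe sets passed over all probe sets. With values as deposited the calls for Sox9 (adjusted p = 0.173) and Sox6 (adjusted p = 0.39) were lost. With no filter those for Sox6 (adjusted p = 0.053) and Sox21 (adjusted p = 0.0941) were lost. For Sox21, 1451835_at gave -0.07 (adjusted p = 0.731), and without MC replicate 3 of the E14.5 set the call for 1437059_at was lost (adjusted p = 0.0505). For Sox2 the difference was 0.01 (95% interval -0.31 to 0.33). Age, tissue and array set cannot be told apart in this comparison.

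The 8 genes differed widely between the vehicle groups of different age. Age and array set cannot be told apart in these comparisons, and outside the hippocampus the tissue differs too. Choroid plexus markers summed to 235 to 355 in E14.5 MC arrays and to 18181 to 26025 in E18.5 forebrain MC arrays. Their part in the Sox results was not tested. Sox3, the SoxB1 gene with the steepest course, measured 507 to 641 in E18.5 forebrain, against 2669 to 3059 in E14.5 telencephalon. Its log2 change of -2.32 (SE 0.13, limma adjusted p = 9.38e-10) was followed by a second probe set at -2.08. Sox9 changed by -1.29 (308 to 323 at E18.5, 759 to 784 at E14.5), Sox5 by -1.08, Sox6 by -0.66 and Sox2 by -0.39. With values as deposited the Sox2 change was 0.0391 (adjusted p = 0.929) and the Sox6 change -0.23 (adjusted p = 0.396), neither passing. Sox8 alone was higher at E18.5, by 0.64 (306 to 330, against 173 to 221). With 5 genes lower and 1 higher, the count stood beside 54.2% of all 13784 genes called.

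The probe sets of Sox1 and Sox21 disagreed across this step. The chosen Sox1 probe set gave 0.02 (95% interval -0.41 to 0.44), while 1422205_at fell by 1.06 (155 to 187 at E18.5, 318 to 405 at E14.5, adjusted p = 0.000666). For Sox21, 1437059_at gave -0.24 and did not pass, while 1451835_at fell by 1.94 (463 to 573 at E18.5, 1832 to 2123 at E14.5, adjusted p = 2.16e-09). Among the Sox5 probe sets 1440827_x_at alone, at 0.09, did not pass.

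The SoxB1 and SoxD genes were lower at 12 to 13 weeks than at E18.5. In adult hippocampus Sox1 changed by -1.18 (301 to 424, against 799 to 902 at E18.5), Sox5 by -1.06, Sox6 by -1.05, Sox3 by -0.78 and Sox2 by -0.59. With values as deposited this Sox2 change was -0.26 and did not pass (limma adjusted p = 0.178). In adult cortex against E18.5 forebrain the same 5 genes were lower, with Sox1 at -1.28 and Sox2 at -0.94. Of all genes, 81.2% in hippocampus and 80.7% in cortex were called, and the median of all genes was shifted by 0.09 in hippocampus and 0.12 in cortex on the log2 scale, which these changes include. For Sox6, 1427677_a_at was nearly flat in both tissues (-0.17 in hippocampus and -0.05 in cortex, neither passing), and for Sox5 1452511_at did not pass in either (0.00 in hippocampus and -0.43 in cortex). Sox9, at 0.08, and Sox21, at -0.17, did not pass in hippocampus, while Sox9 1451538_at fell by 0.40 there (adjusted p = 0.0211). Sox21 did not pass in cortex, at -0.30, while 1451835_at fell by 0.27 (adjusted p = 0.0349).

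Sox8 was higher in the set of 12 to 13 weeks than at E18.5. It measured 344 to 447 in adult hippocampus, against 236 to 270 in E18.5 hippocampus (0.67, adjusted p = 0.000204), and 537 to 633 in adult cortex, against 306 to 330 in E18.5 forebrain (0.88, adjusted p = 1.38e-05). In the separate P84 set, not tested against these, Sox8 was 153 to 203 in MC hippocampus, below every E18.5 hippocampus MC array. Sox8 was lower in adult hippocampus than in adult cortex, by 0.50 (adjusted p = 0.0143), the 1 Sox gene called there among 15.6% of all genes. That call was lost without hippocampus MC replicate 1 or cortex MC replicate 3 (adjusted p up to 0.0768). Sox9 was 0.35 higher in adult cortex than in E18.5 forebrain (adjusted p = 0.0383), with overlapping groups, and its second probe set gave -0.18. That call was lost without any 1 of the 3 E18.5 arrays or without cortex MC replicate 2 or 3. It was lost too with quantile normalization (0.11, adjusted p = 0.502), with no filter, with the replicate block and with the arrays of the 2 groups alone. Between E18.5 hippocampus and forebrain 1 gene was called, Sox2 at -0.30 (adjusted p = 0.0426, 3460 to 3661 against 4185 to 4485), among 19.5% of all genes, and leaving out any 1 of these 6 arrays ended the call (adjusted p 0.0616 to 0.136).

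**Figure D4:**
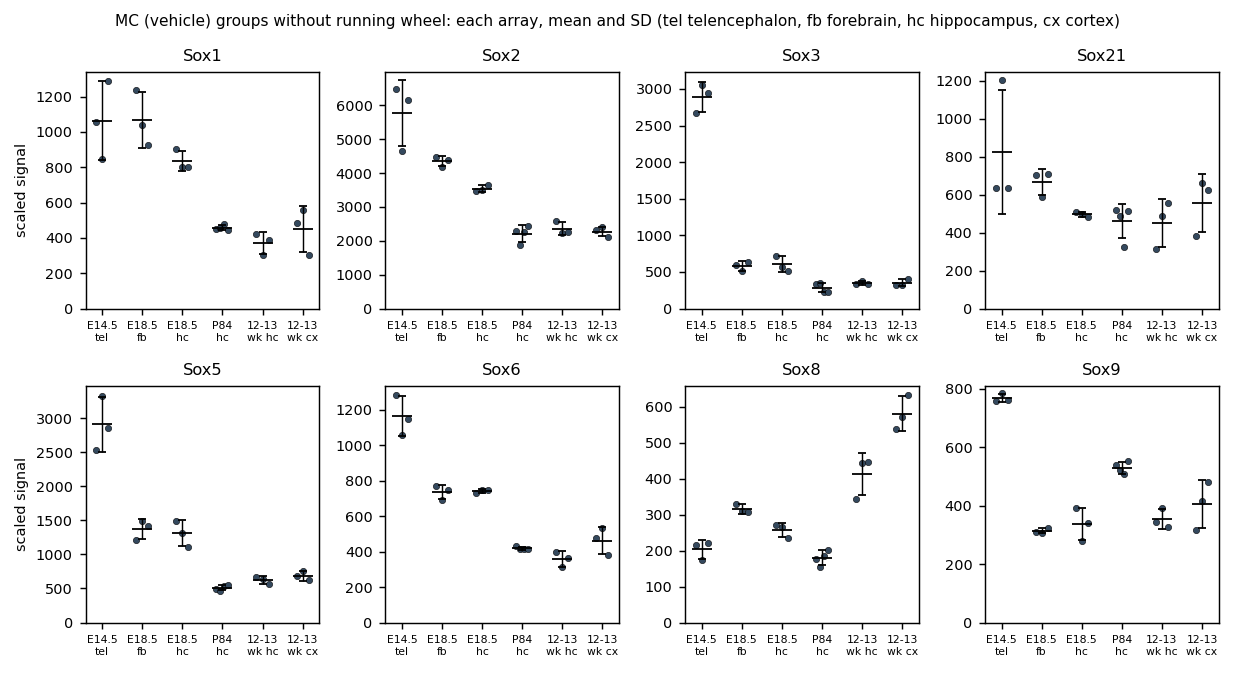
Scaled signal of the chosen probe set of each Sox gene in the MC groups without a running wheel, one point per array with mean and SD, over E14.5 telencephalon, E18.5 forebrain and hippocampus, P84 hippocampus and hippocampus and cortex of 12 to 13 weeks. Sox3 is at 2669 to 3059 at E14.5 and at most 725 in every later array shown. Sox8 alone is highest at 12 to 13 weeks, while in P84 hippocampus, at 153 to 203, it has its lowest mean of the groups shown.

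The order of all 19 groups followed these courses. Sox3 was highest in the E14.5 MC group (2889 ± 200), overlapping with E14.5 VPA (2647 ± 105), and E14.5 VPM (1671 ± 206) stood apart from its neighbours on either side. The 6 groups of E18.5 came next with overlapping neighbours, between 447 and 606. Sox2 was highest in E14.5 MC (5768 ± 972) and lowest in the adult cortex of VPA offspring (1779 ± 144), below a next group of 2009 ± 36.5 that it did not overlap. Sox8 had its 2 lowest levels in the P84 hippocampus, 175 ± 5.64 in VPA and 180 ± 20.6 in MC (n = 4 each), although the hippocampus of 12 to 13 weeks, of like age, held 476 ± 66.1 in VPA and 412 ± 58.6 in MC. Sox9 stood the other way round, at 505 ± 64.7 and 530 ± 20.3 in P84 VPA and MC, against 367 ± 35.0 and 354 ± 34.3 in the set of 12 to 13 weeks. The levels of the 2 hippocampus sets, of like age by their labels but separate array sets, were not tested against each other. The cause of the gap was not tested. The VPA minus MC effect was compared between them, and 0 of the 8 genes were called, beside 0.0147% of all genes.

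In the adult brain 0 of the 8 genes were called in any comparison of VPA with MC, with or without a wheel, or of running with no running, and the call rate over all genes was 0% to 0.022%. The counts at an unadjusted p under 0.05 were 0 to 3 of 8 per comparison, beside 568 to 1835 of the 13036 to 13606 genes tested. Over these comparisons, interactions aside, the log2 differences of the 8 genes lay between -0.41 and 0.23. The nearest to a call was Sox2 in the cortex, where VPA offspring had 1913, 1626 and 1798, against 2309, 2393 and 2120 in MC. No VPA array reached the MC arrays, as for 15.7% of all genes without overlap there, and the log2 difference was -0.36 (SE 0.07, unadjusted p = 0.000141, limma adjusted p = 0.12). In hippocampus Sox2 differed by -0.22 (1948 to 2071 in VPA, 2225 to 2576 in MC, adjusted p = 0.348), and at P84 by -0.10 (1981 to 2089 in VPA, 1866 to 2433 in MC, adjusted p = 0.911).

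No VPA+RW array reached the MC+RW range for Sox3 in hippocampus (279 to 327 in VPA+RW, 347 to 397 in MC+RW, log2 difference -0.34, adjusted p = 1), as for 9.42% of all genes without overlap there. The Sox2 difference between VPA+RW and MC+RW was -0.10 in cortex and -0.03 in hippocampus. The interaction of VPA with running was 0.25 in cortex (95% interval 0.04 to 0.46, adjusted p = 0.764) and 0.20 in hippocampus (0.002 to 0.39, adjusted p = 0.961), neither passing. For Sox8, VPA+RW differed from VPA by -0.39 in cortex (439 to 621 in VPA+RW, 660 to 679 in VPA, adjusted p = 0.569) and by -0.41 in hippocampus (307 to 431 in VPA+RW, 400 to 522 in VPA, adjusted p = 0.507). MC+RW differed from MC in Sox8 by -0.02 and 0.07 in the same tissues. The interaction of VPA with running was called for 0 of the 8 genes, Sox8 included, in either tissue, beside 0% of all genes. The myelin marker sums of VPA+RW and VPA overlapped in both tissues.

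Sox2 and Sox3 were lower in VPA than in MC in all 8 pairs of groups, which share no array although the adult tissues may come from the same mice. Sox2 differed by -0.36 to -0.03 and Sox3 by -0.38 to -0.12 on the log2 scale, and 2 of the 16 differences, both of Sox2, passed. Of 10384 genes tested in all 6 sets, 104 were lower in all 8 pairs (1.00%) and 107 higher in all 8. The second Sox3 probe set, which was too dim for the filter in the adult sets, was lower in 7 of 8. The other 6 Sox genes were lower in 4 to 6 of the 8 pairs. This regularity was noticed after the values were seen, and it has no test of its own.

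**Figure D5:**
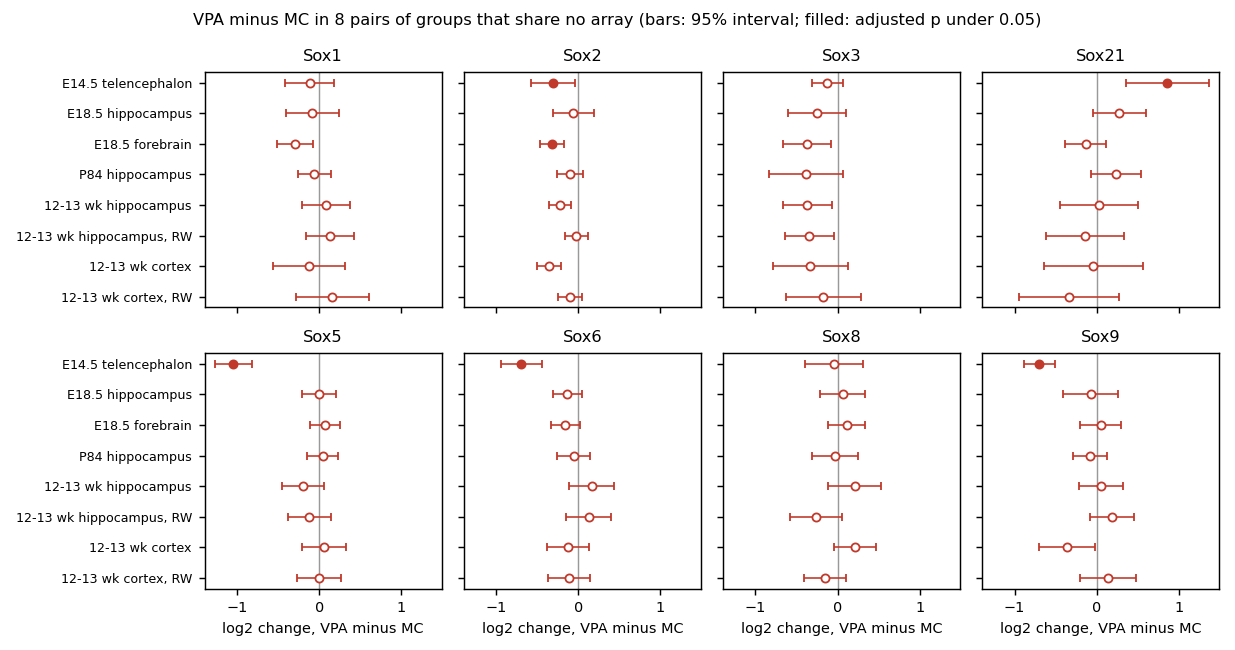
Log2 change of VPA minus MC with its 95% interval for each Sox gene in 8 pairs of groups that share no array, RW standing for running wheel. The filled points, adjusted p under 0.05, are 5 at E14.5 and Sox2 in E18.5 forebrain, and Sox2 and Sox3 lie below 0 in all 8 rows.

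Over the 19 group means, which share age as their main difference, Sox5 and Sox6 had the most alike courses among the 8 genes (Pearson r = 0.97), followed by Sox1 and Sox2 (0.95). Sox8 ran against all others, with r between -0.58 and -0.45. Of 13605 genes, those most like Sox3 were Nsmce4a, the neural stem cell receptor gene Nr2e1 and the DNA polymerase gene Pold1 (r of 0.98 each). Those most like Sox6 were Cenpa, Rfc5 and Nup37 (0.98 each), and those most like Sox2 were Nol11, Mta1 and Tardbp (0.98 to 0.99). Nothing on shared control follows from these values. For Sox1 they were Smarcd3, Mex3d and Bag6 (0.99 each), for Sox5 Fiz1, Fam168b and Cse1l (0.98 to 0.99), and for Sox21, with 1437059_at, Pex26, Bri3 and Nxf1 (0.94 each). The likeness was lower for Sox8 and Sox9, with Zdhhc1 (0.95), Agpat1 (0.90) and Chrm4 (0.88) for Sox8 and Polr2a (0.90), Fanci (0.87) and Acss1 (0.87) for Sox9.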

How the data were processed

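The deposited values are linear signal intensities per probe set of 59 arrays. GCOS made them, per the submitters' processing notes. Signal algorithm and scaling: not given in the sources used here. Trimmed means (2%) of the deposited intensity values lay between 198 and 419, and no 2 of the 1711 pairs of arrays were identical. All arrays were multiplied to reach 500 for this mean, signals below 32 were raised to 32 (18.2% to 38.0% of probe sets), and log2 followed. Of 45101 probe sets, 34958 carried 1 gene symbol, 932 several and 9211 none. Each gene was tested with its probe set of highest mean over all arrays, where at least 3 arrays (4 at P84) of those compared reached 100. The test was that of limma 3.58.1 (R 4.3.3) on 1 term per group with a trend on intensity, and p-values were adjusted over all genes by Benjamini-Hochberg, at 0.05. Comparisons of age used the MC arrays of the E14.5, E18.5 and 12 to 13 week sets. The procedure was run on simulated data with independent normal noise, which holds no structure shared between genes of an array. The same small number of genes was changed in every comparison, and recovery depends on the share changed. In the data, VPA minus MC called 53.8% of genes at E14.5 and 0% in adult hippocampus. For VPA minus MC, a log2 change of 0.5 was recovered in 63% of genes at E14.5 and 68% in E18.5 forebrain. In adult hippocampus it was 49%, in adult cortex 47%, and for the E14.5 minus E18.5 difference 40%. The number of arrays per group, 3 or 4, limits the precision, and the labels call the arrays biological replicates.

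The 8 genes, the 14 marker and pathway lists (137 of 144 entries matched a probe set) and the tests were chosen with earlier results of these data known. All 8 genes were tested in every comparison. Of each list up to 4 tested genes with the smallest adjusted p could be named, and likeness is the Pearson correlation of log2 signal over the 19 group means. The alternatives were quantile normalization, values as deposited, log2(signal + 32), no filter, a filter at 200, no trend, every probe set, the replicate block, the arrays of the compared groups alone, log2 Xist signal as a covariate for embryos, and leaving out each array. Python 3.11.15 with pandas 2.3.3 and matplotlib 3.10.9 was used for summaries and figures.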

Additional observations from a re-analysis of the deposited data

Results flagged for a closer look

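The effect of VPA on 4 Sox genes differed between E14.5 telencephalon and E18.5 forebrain by a test of the difference itself: the log2 effect at E14.5 minus that at E18.5 was -1.12 for Sox5, -0.53 for Sox6, -0.75 for Sox9 and 0.99 for Sox21 (probe set 1437059_at, with which 1451835_at disagreed). With values as deposited the calls for Sox6 and Sox9 were lost, and with no filter those for Sox6 and Sox21. Each of the 8 genes was checked in each of the 2 groups of 4 at P84 for 1 array apart from the other 3. In each group 1 gene was marked. Sox2 was 1981 in the lowest VPA array, against 2076 to 2089 in the others, and Sox6 was 430 in the highest MC array, against 414 to 416. About 1 in 20 groups would be marked in this way by chance.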

How the results depend on the processing

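Of 29 comparisons, 23 kept a count of called Sox genes within 1.5 times under all alternatives run, and the 19 with 0 called genes had 0 in every alternative. At E14.5 the count for VPA minus MC was 5, and 3 with no filter (4 to 5 leaving out each array). For VPM minus MC it was 3, and 2 to 5 leaving out each array. In E18.5 forebrain VPA minus MC had 1, and 0 with values as deposited, with no filter, with no intensity trend, with the replicate block, with every probe set, with the Xist covariate and leaving out each array (0 to 0). The difference of the VPA effect between E14.5 and E18.5 forebrain had 4, and 2 with values as deposited (Sox6 and Sox9 lost) and with no filter (Sox6 and Sox21 lost). Among MC levels, E18.5 hippocampus minus forebrain had 1, and 0 with values as deposited, with no filter, with no intensity trend and leaving out each array (0 to 0), and 2 with the arrays of the 2 groups alone. Adult hippocampus minus cortex had 1, and 0 with values as deposited and with the arrays of the 2 groups alone. The Sox2 change of -0.39 between E14.5 telencephalon and E18.5 forebrain turned to 0.0391 with values as deposited, in which arrays are not brought to a common level, and the Sox6 call there was lost (-0.23). Of 722 values of single Sox genes under alternatives, 636 kept their direction and call, 71 lost the call, 14 gained it and 1 turned. The cause of these moves was not tested. The labels do not say that replicate numbers pair samples. Deviations of arrays with the same number correlated at -0.10 to 0.14 at E14.5 and at -0.18 to 0.29 in E18.5 forebrain, so not every pair was above 0.1. In all 6 groups of E18.5, however, replicate 3 had the lowest deposited trimmed mean (207 to 270, against 270 to 344 in replicates 1 and 2) and the highest summed signal of other Sox genes, so a shared feature of that number cannot be set aside. With the replicate block the count was 4 in place of 3 for VPA minus VPM at E14.5 and 6 in place of 7 for adult cortex minus E18.5 forebrain. Signals near the floor limit the dimmer probe sets of Sox1 and Sox3 in adults.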
